A study of Mus musculus with 24 samples.

Results

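The genes described here are the cytosolic HSP90 chaperones Hsp90aa1 and Hsp90ab1, the co-chaperone genes Ahsa1, Stip1, Ptges3, Cdc37 and Fkbp4, the heat shock factor genes Hsf1 and Hsf2, and Hsbp1, which encodes a small protein that binds heat shock factor 1. They were taken by gene name: all probes that carry 1 of these 10 names, 20 of the 41174 probes on the array. Of these 20 probes, 17 were tested, from 9 of the 10 genes, and each of the 17 was well above background on all 24 arrays. Both Hsf2 probes and 1 of 2 Stip1 probes were well above background on 0 of 24 arrays, so the data give no level for Hsf2.

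RNA came from embryonic fibroblasts of the mouse, the main cells of connective tissue, which had been cultured from day 13.5 embryos of C57BL6 parents heterozygous for CHIP. CHIP, the product of Stub1, is a ubiquitin ligase that docks on HSP70 and HSP90. The 8 groups were CHIP(-/-) cells (CHIP null) heated to 43 °C, CHIP null controls kept at 37 °C, CHIP(+/+) cells (wildtype) heated to 43 °C and wildtype controls at 37 °C, each labelled 30 min and each labelled 240 min, with 3 arrays a group. All cultures had β-mercaptoethanol in the medium and 5% CO2, and the labels call the 3 arrays of a group biological replicates without saying how many embryos or cultures they came from, so p-values measure the spread between these samples, which may be technical. In bulk RNA, fewer cells of a kind and less RNA per cell cannot be told apart. Each array compared Cy5-labelled sample RNA with a Cy3-labelled mouse reference RNA, and a value is the log2 ratio of Cy5 over Cy3 (log2 ratio).

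HSP90 is an ATP-driven chaperone that holds kinases, steroid receptors and other clients in a form that can be activated. Co-chaperones guide this cycle: the STIP1 protein passes clients over from HSP70, CDC37 brings kinases, AHSA1 speeds the ATPase, p23 (from Ptges3) holds the closed state, and FKBP4 is a proline isomerase found in steroid receptor complexes. In unstressed cells HSP90 and its partners restrain HSF1, the main transcription factor of the heat shock response; heat frees HSF1 to form trimers that bind heat shock elements, and Hsp90aa1 is known as the heat-inducible of the 2 cytosolic HSP90 genes.

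Facts of the arrays that touch these results are as follows. The Stub1 probe lay between -2.43 and -1.72 on the CHIP null arrays and between -0.24 and -0.01 on the wildtype arrays, as the genotype labels say. Between 32.9% and 48.6% of probes were well above background in Cy5 on an array, and 13 to 14 of 14 fibroblast marker genes were so on every array. So were 8 to 9 of 9 muscle and 5 to 7 of 7 epithelial marker genes, against 1 to 4 of 7 endothelial ones. These counts do not identify the cells. The 6 wildtype arrays labelled 30 min stood apart from the other 18: Xist was not well above background on any of them and was on all others, and Eif2s3y and Ddx3y were well above background only there. Macrophage markers were higher there too, with mean log2 ratios of -0.92 to -0.82 in the heated and -0.41 to -0.39 in the control wildtype cells at 30 min, against -1.70 to -1.002 in the other 6 groups, and 8 to 11 of the 13 genes well above background there against 3 to 11. Neural and glial markers had mean log2 ratios of -0.37 to -0.25 on the 6 arrays, against -0.89 to -0.43 on the others, and fibroblast markers of -0.69 to -0.41, against -0.24 to 0.19. The time labels are in doubt. Each column of the deposited value table, with the mean of the control columns added to the heated ones, correlated at 0.9996 or more with a scanner file that shared its genotype, treatment and replicate but carried the opposite time. No source used here settles which is right, and times below follow the scanner files. Arrays of the 2 time labels were also scanned on different days, so a difference between times cannot be told apart from one between scan days.

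Promoter windows from RefSeq (build GRCm38.p6, 250 bases before to 50 after a transcript start) were at hand for 7 of the 10 genes and not for Hsp90aa1, Hsp90ab1 or Hsf1. In 5 of them that start is the first annotated base of the gene, while the windows of Ahsa1 and Hsf2 lie around a later start and are not used here. They are shown because heat shock factors bind inverted repeats of nGAAn. Printed, in lower case with motif matches in capitals, are Cdc37 and Fkbp4, the 2 genes with a pair of such units, and Stip1, with the most CCAAT boxes.

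Cdc37: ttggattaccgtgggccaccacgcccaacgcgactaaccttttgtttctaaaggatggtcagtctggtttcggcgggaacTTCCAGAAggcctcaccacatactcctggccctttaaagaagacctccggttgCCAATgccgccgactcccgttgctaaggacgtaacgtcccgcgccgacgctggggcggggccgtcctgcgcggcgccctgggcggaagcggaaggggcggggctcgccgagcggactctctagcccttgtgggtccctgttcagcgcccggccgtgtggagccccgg
Fkbp4: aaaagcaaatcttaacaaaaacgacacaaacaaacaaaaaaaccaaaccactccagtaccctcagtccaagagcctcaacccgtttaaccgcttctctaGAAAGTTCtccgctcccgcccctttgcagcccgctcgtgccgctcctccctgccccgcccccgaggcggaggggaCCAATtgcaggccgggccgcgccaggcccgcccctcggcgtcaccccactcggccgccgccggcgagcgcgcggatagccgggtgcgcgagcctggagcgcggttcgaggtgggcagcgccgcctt
Stip1: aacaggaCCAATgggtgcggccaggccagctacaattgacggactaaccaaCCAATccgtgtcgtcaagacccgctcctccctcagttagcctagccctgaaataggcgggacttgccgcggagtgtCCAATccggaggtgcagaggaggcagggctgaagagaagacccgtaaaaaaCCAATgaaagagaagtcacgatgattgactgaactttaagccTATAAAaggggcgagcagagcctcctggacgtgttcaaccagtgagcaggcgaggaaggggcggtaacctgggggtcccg

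The motifs searched, on both strands, were GAANNTTC and TTCNNGAA, which are 2-unit heat shock element pairs, runs of 3 units, in which a pair of each kind overlap, CCAAT, and TATAAA. The Cdc37 window (chr9:21149885-21150184, minus strand) held TTCCAGAA at positions -170 to -163 from the gene start and 1 CCAAT. The Fkbp4 window (chr6:128438607-128438906, minus strand) held GAAAGTTC at positions -151 to -144 and 1 CCAAT. The Stip1 window (chr19:7039977-7040276, minus strand) held 4 CCAAT and TATAAA at positions -30 to -25. A pair was present in 15.1% of all 32544 windows, a run of 3 units in 0.608%, CCAAT in 37.4% and TATAAA in 13.6%, and the windows of Ptges3, Stip1 and Hsbp1 held no pair. These letters describe the windows, and binding was not measured.

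With loess, a background offset of 50 and no slide block, no heat difference that passed reached 1.5-fold in the HSP90 machinery. Over the 4 heat comparisons (2 genotypes, 2 times), 17 probes gave 68 differences. Of these, 11 were higher and 5 lower in heated cells at an adjusted p under 0.05, between -0.48 and 0.31. In CHIP null cells at 30 min, Hsp90aa1 exceeded 1.5-fold under 4 alternatives, as given below. There Ptges3 A_51_P474367 did so with median centring and Stip1 with slide as a block. The Hsp90aa1 and Stip1 values with that block rest on heated replicate 1 alone. It was the only heated array on the slide of the CHIP null controls. In the other heat comparisons, too, the shared slide held only 1 heated or only 1 control array. In CHIP null cells at 30 min, 1 probe rose and 2 fell, where 30.6% of all 19358 probes tested were called, 18.7% as higher and 11.9% as lower. In CHIP null cells at 240 min 5 rose and 1 fell, where 35% of all probes were called (20.8% higher, 14.2% lower). In wildtype cells at 30 min 1 rose and 1 fell, where 11.3% were called (5.4% higher, 5.95% lower), and at 240 min 4 rose and 1 fell, where 28.5% were called (16.3% higher, 12.2% lower). The 3 heated arrays lay wholly above or below the 3 controls at 8, 7, 5 and 8 of the 17 probes in this order, as they did at 41.4%, 43.1%, 28.8% and 48.5% of all probes. The median difference over the 17 probes lay between 0.03 and 0.11, against 0.01 to 0.06 over all probes tested. All tests were limma's moderated tests with Benjamini-Hochberg adjustment over all probes. With arrays centred on their median in place of loess, the median of all probes moved to -0.15 and -0.17 in CHIP null cells at 30 and 240 min, against 0.02 and 0.06 with loess, and the counts became 0 rises with 11 falls and 0 rises with 2 falls. In wildtype cells that centring left 0 calls at either time, where loess gave 2 and 5.

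**Figure D1:**
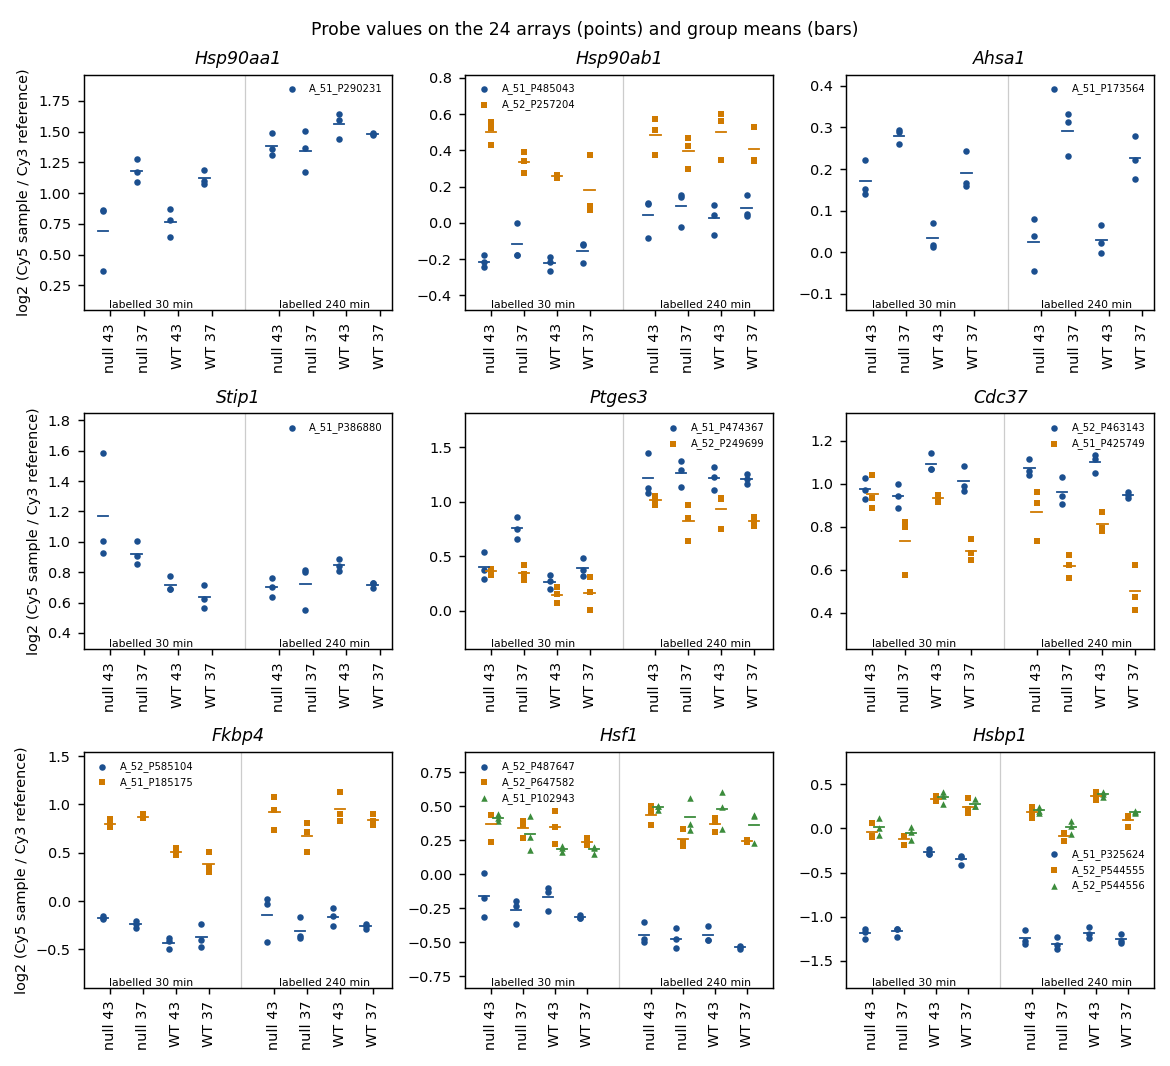
Log2 ratio of Cy5 sample over Cy3 reference (vertical axis) for each tested probe of the 9 genes, with 1 point per array, bars at the group mean of 3 arrays and colours for probes; groups run along the horizontal axis as CHIP null (null) and wildtype (WT) at 43 and 37 °C, left of the line for the label 30 min and right of it for 240 min. Hsp90aa1 is lower in heated than control cells at 30 min in both genotypes, and the Hsbp1 probe drawn as circles lies between -0.41 and -0.24 on the wildtype 30 min arrays and between -1.36 and -1.11 on the other 18.

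Hsp90aa1 was lower in heated cells at 30 min in both genotypes and did not pass the test at 240 min. Its single probe read 0.37, 0.86 and 0.86 in heated CHIP null cells at 30 min, against 1.28, 1.09 and 1.17 in CHIP null controls. In wildtype cells at 30 min it read 0.79, 0.87 and 0.65 after heat, against 1.19, 1.10 and 1.08 in controls. In each genotype all 3 heated arrays lay below all 3 controls, as 41.4% of all probes in CHIP null and 28.8% in wildtype cells did in one direction or the other. The differences were -0.48 ± 0.10 (SE, n = 3 each), 1.40-fold lower, with an adjusted p of 0.00043 in limma for CHIP null, and -0.35 ± 0.10, 1.28-fold lower, adjusted p = 0.016, for wildtype cells. At 240 min the values were 1.49, 1.36 and 1.31 in heated CHIP null cells against 1.36, 1.17 and 1.503 in their controls, and 1.64, 1.59 and 1.44 in heated wildtype cells against 1.47, 1.48 and 1.49. There the groups overlapped, with differences of 0.04 (95% interval -0.16 to 0.24) and 0.08 (-0.12 to 0.27).

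The heat effect on Hsp90aa1 (heated minus control) was higher by 0.52 ± 0.14 at 240 than at 30 min in CHIP null cells (adjusted p = 0.04 in limma, where 1.88% of probes were called), and by 0.43 ± 0.14 in wildtype cells, which missed the threshold (adjusted p = 0.11; 0.971% called) except without heated CHIP null replicate 1 at 30 min (adjusted p = 0.036). It did not pass a test of difference between genotypes: CHIP null minus wildtype was -0.13 at 30 min (95% interval -0.41 to 0.15) and -0.04 at 240 min (-0.32 to 0.24). None of the 17 probes passed that test at either time, where 0.212% and 0% of all probes did. Of the 3 heated CHIP null arrays at 30 min, replicate 1 was the lowest at 0.37. Without it the fall was -0.32 and stayed past the threshold, but the 240 minus 30 min difference was 0.36 and did not. That last call was also lost without any 1 of CHIP null control replicates 1 and 3 at 30 min, CHIP null control replicates 1 and 2, heated replicate 2 and wildtype control replicate 3 at 240 min. The wildtype fall at 30 min missed the threshold without control replicate 1 (-0.32) or heated replicate 3 (-0.29).

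The sizes of the falls at 30 min changed with the normalization. In CHIP null cells they were -0.91 with median centring, -0.75 relative to the median of all probes, -0.63 with an offset of 10, -0.81 with slide as a block and -0.71 with the scanner software's own log ratio. In wildtype cells median centring gave -0.43, with an adjusted p of 0.17, and the scanner software's ratio gave -0.51, which passed. Heated and control arrays shared a slide only in part. On the slide that held 1 heated and 3 control CHIP null arrays the difference was -0.81. That heated array was replicate 1, the lowest, and the -0.81 with slide as a block rests on it alone. On the slide with 3 heated and 1 control wildtype arrays the difference was -0.31. With slide as a block the wildtype fall was no longer past the threshold (adjusted p = 0.094). By the time labels of the deposited value table, the falls of -0.71 and -0.51 stood at 240 min, and the values at 30 min were -0.08 and -0.03.

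**Figure D2:**
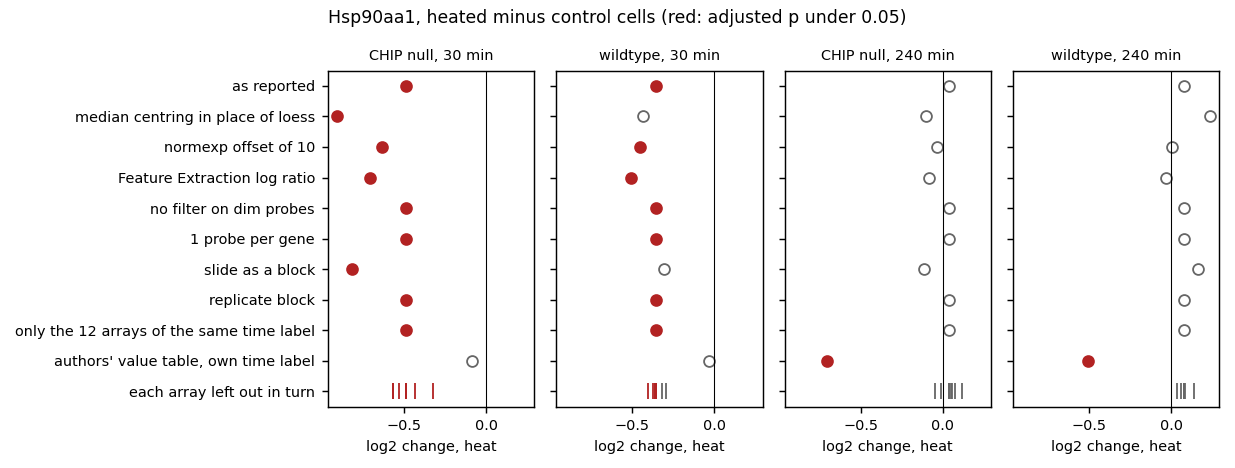
Heat effect on Hsp90aa1 (log2 change, heated minus control, horizontal axis) in each genotype and time under each way of processing (rows), with filled red points for adjusted p under 0.05 and ticks in the last row for each of the 24 arrays left out. At 30 min in CHIP null cells the change lies between -0.91 and -0.32 except by the value table's own labels, where the fall appears at 240 min.

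Hsp90ab1, the constitutively expressed cytosolic HSP90 gene, was not called in any heat comparison with these settings. Its 2 probes disagreed in sign: A_51_P485043 differed by -0.10 to -0.05 over the 4 comparisons and A_52_P257204 by 0.08 to 0.17. In heated CHIP null cells at 30 min the second of these read 0.56, 0.52 and 0.43, against 0.39, 0.28 and 0.34 in controls, so the arrays did not overlap, but the difference of 0.17 (95% interval 0.01 to 0.33) had an adjusted p of 0.1 in limma. A_51_P485043 was called lower there with an offset of 10 (-0.26, adjusted p = 0.012), the scanner software's ratio (-0.32, adjusted p = 0.0035) and median centring (-0.48, adjusted p = 0.018). The Hsp90aa1 and Hsp90ab1 transcripts are close in sequence, and cross-hybridisation between them was not tested.

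Among the co-chaperone genes named at the start, only Cdc37 had a probe that rose with heat in all 4 comparisons. Probe A_51_P425749 read 0.93, 1.04 and 0.89 in heated against 0.80, 0.58 and 0.82 in control CHIP null cells at 30 min, and 0.74, 0.96 and 0.91 against 0.67, 0.62 and 0.56 at 240 min. In wildtype cells it read 0.94, 0.95 and 0.92 after heat against 0.74, 0.65 and 0.68 in controls at 30 min, and 0.79, 0.78 and 0.87 against 0.47, 0.62 and 0.41 at 240 min. The heated arrays lay above the controls in every pair of groups. The rises were 0.22, 0.25, 0.25 and 0.31 in this order, each with an SE of 0.07 and adjusted p-values from 0.0016 to 0.019 in limma. The brighter Cdc37 probe, A_52_P463143, differed by 0.03, 0.11, 0.08 and 0.15, and only the last passed (adjusted p = 0.039). With the scanner software's ratio its first value was -0.22 and passed as lower (adjusted p = 0.0028). The CHIP null direction depended on the scaling: with median centring the A_51_P425749 differences were -0.14 and -0.092, or 0.01 and 0.08 relative to the median of all probes, and neither passed. In wildtype cells that centring gave 0.09 at 30 and 0.19 at 240 min, and 0.29 for A_52_P463143 at 240 min. None of these passed. The CHIP null rise at 30 min lost its call without heated or control replicate 2 (0.14 to 0.18), the one at 240 min without heated replicate 2 (0.21), the wildtype rise at 30 min without control replicate 2 or heated replicate 1 or 2 (0.23 to 0.24), and the call of A_52_P463143 without any 1 of 3 controls or heated replicates 1 and 2 (0.135 to 0.16). A slide block kept only the call in CHIP null cells at 240 min, among the 4 of A_51_P425749.

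Ahsa1, whose product stimulates the HSP90 ATPase, was lower after heat at 240 min in both genotypes. Its probe read 0.08, 0.04 and -0.05 in heated CHIP null cells, against 0.33, 0.31 and 0.23 in controls. In wildtype cells it read 0.07, 0.02 and -0.00 after heat, against 0.28, 0.22 and 0.18. Heated arrays lay below controls throughout, by -0.27 ± 0.05 (adjusted p = 0.00048) and -0.20 ± 0.05 (adjusted p = 0.0077) in limma. At 30 min the differences were -0.11 (95% interval -0.22 to 0.0006) and -0.16 (-0.27 to -0.05), with adjusted p-values of 0.13 and 0.058. Both passed with an offset of 10, at -0.22 (adjusted p = 0.0069) and -0.21 (adjusted p = 0.021), and with the scanner software's ratio, at -0.21 and -0.20. The wildtype one also passed with 1 probe per gene and without heated CHIP null replicate 1 at 240 min, and the CHIP null one with median centring (-0.54). A slide block gave -0.21 and -0.16 at 240 min, and both missed the threshold. With median centring the 240 min fall was -0.54 in CHIP null cells, which passed, and -0.19 in wildtype cells, which did not.

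Ptges3, the gene of p23, was measured by 2 probes that did not move alike. A_51_P474367 read 0.29, 0.54 and 0.37 in heated CHIP null cells at 30 min, against 0.75, 0.66 and 0.86 in controls, a fall of -0.36 ± 0.08 with an adjusted p of 0.0019 in limma. In the same comparison A_52_P249699 read 0.33, 0.38 and 0.38 in heated and 0.42, 0.33 and 0.28 in control cells, a difference of 0.02 (95% interval -0.15 to 0.18). In the other 3 heat comparisons neither probe passed, with differences from -0.13 to 0.20, except that the 0.20 of A_52_P249699 in CHIP null cells at 240 min passed in 4 of 24 fits with 1 array left out. Those arrays were wildtype control replicates 1 and 3 at 30 min, and heated wildtype replicate 3 and CHIP null control replicate 3 at 240 min. The fall thus rests on 1 of 2 probes. With median centring the fall at A_51_P474367 was -0.86 (adjusted p = 0.00075 in limma), or -0.70 relative to the median of all probes.

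Fkbp4 and Stip1 gave 1 call between them. Fkbp4 probe A_51_P185175 read 0.74, 1.08 and 0.94 in heated CHIP null cells at 240 min and 0.71, 0.81 and 0.51 in their controls. The groups overlapped, and the difference of 0.24 ± 0.08 had an adjusted p of 0.02 in limma. It lost the call without control replicate 3 or heated replicate 2 or 3 (0.16 to 0.23) and was -0.09 with median centring, or 0.07 relative to the median of all probes. The other Fkbp4 probe differed by 0.16 there (adjusted p = 0.13) and by 0.30, which passed, without heated replicate 1. Stip1 read 1.59, 1.003 and 0.93 in heated CHIP null cells at 30 min against 0.85, 0.91 and 1.01 in controls, and its difference of 0.25 (95% interval 0.05 to 0.46) missed the threshold (adjusted p = 0.057). With slide as a block it was 0.67 and passed, a value from heated replicate 1 alone, the only heated array on the slide of the controls. Stip1 also passed with the scanner software's ratio (0.42, adjusted p = 0.0075 in limma). So it did without heated replicate 2 (0.34) or 3 (0.37) or CHIP null control replicate 3 at 240 min (0.25). At 240 min its CHIP null difference was -0.02, or -0.37 and past the threshold with median centring. Replicate 1 of the heated arrays, the one with the lowest Hsp90aa1 value, held the highest Stip1 value.

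Hsf1 was measured by 3 probes, and 1 of 12 heat differences passed the test. Probe A_52_P647582 read 0.36, 0.46 and 0.50 in heated CHIP null cells at 240 min, against 0.24, 0.21 and 0.33 in controls, a rise of 0.18 ± 0.06 (adjusted p = 0.03 in limma). It was -0.18 with median centring, or -0.01 relative to the median of all probes, and lost the call without control replicate 1 or 2 or heated replicate 2 or 3 (0.15 to 0.17). The slide block gave 0.11 and ended the call. The other 11 differences lay between 0.0044 and 0.14. Of these, A_52_P487647 in CHIP null cells at 30 min passed with slide as a block (0.28) and, as lower, with median centring (-0.35), as did A_52_P647582 (-0.33). The 0.28 rests on heated replicate 1 alone. Neither Hsf2 probe rose well above background anywhere, and no fold is given for it.

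Hsbp1 rose after heat at 240 min in both genotypes by 2 of its 3 probes. A_52_P544555 read 0.24, 0.18 and 0.12 in heated CHIP null cells against -0.07, -0.14 and -0.06 in controls, and 0.36, 0.42 and 0.32 in heated wildtype cells against 0.14, 0.02 and 0.12. The rises were 0.27 ± 0.06 and 0.28 ± 0.06, both with an adjusted p of 0.0012 in limma. A_52_P544556 gave 0.19 and 0.20 (adjusted p = 0.014 each), and the brightest probe, A_51_P325624, gave 0.06 and 0.07 and did not pass. The CHIP null rises turned to -0.05 and -0.13 with median centring, which is 0.11 and 0.04 relative to the median of all probes. In wildtype cells that centring gave 0.20 and 0.11, and neither passed. The smaller CHIP null rise lost its call without control replicate 2 (0.15). With slide as a block all 4 calls were lost, at 0.24 and 0.13 in CHIP null cells (adjusted p = 0.053 and 0.3) and at 0.27 and 0.23 in wildtype cells (adjusted p = 0.069 and 0.13). At 30 min the 3 probes differed by -0.02 to 0.09 and none passed, while median centring gave -0.45 to -0.33 in CHIP null cells, all past the threshold.

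**Figure D3:**
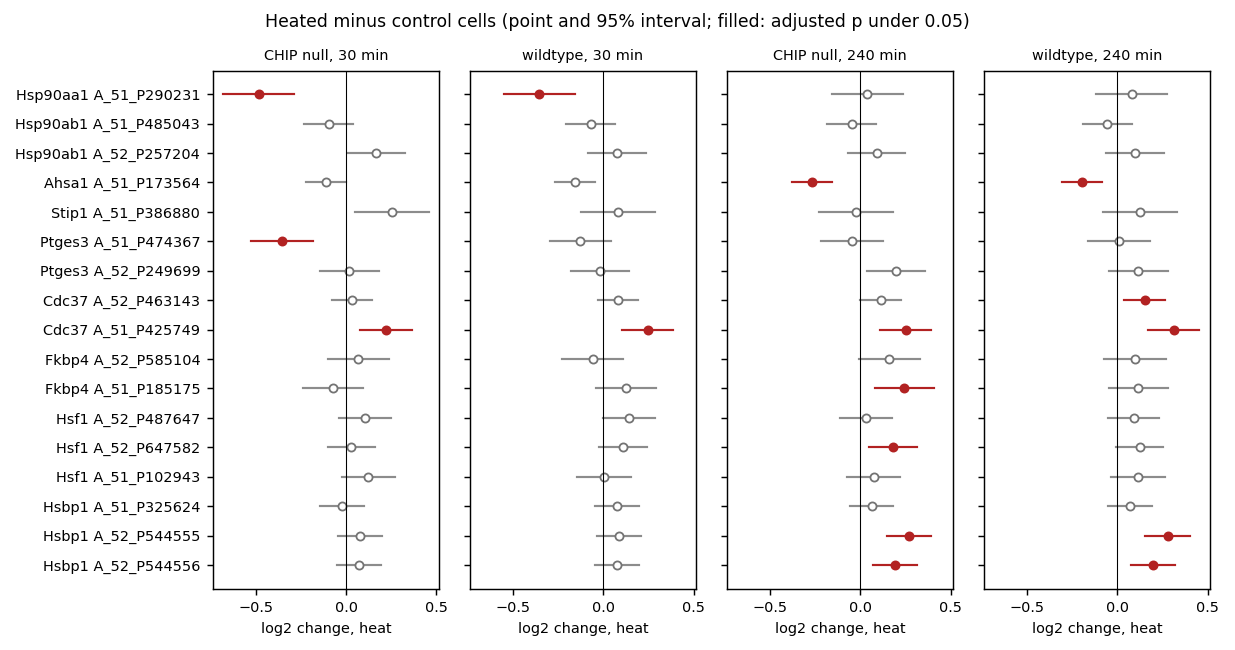
Difference between heated and control cells (log2 change, horizontal axis) for the 17 tested probes (rows) in each genotype and time, with 95% intervals from the fit to all 24 arrays and filled red points for adjusted p under 0.05. The 30 min panels show the falls of Hsp90aa1 (-0.48 and -0.35), and the 240 min panels the falls of Ahsa1 (-0.27 and -0.20) and the rises of 2 Hsbp1 probes, whose CHIP null values turn negative with median centring. No wildtype call stays with that centring.

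Loss of CHIP was compared next, within each temperature and time. In none of these comparisons did arrays of both genotypes share a slide. A genotype difference therefore cannot be told apart from a slide difference by the compared arrays alone. Values with slide as a block rest on links through the other groups. In 30 min controls the link runs through 1 array, heated CHIP null replicate 1, the only other array on the slide of the CHIP null controls. At 30 min, CHIP null cells had 6 of the 17 probes higher and 3 lower than wildtype cells after heat, where 22.9% of all probes were called (12.2% higher, 10.7% lower). In 30 min controls 3 were higher and 3 lower, where 29.3% were called (13.7% higher, 15.6% lower). At 240 min 0 were higher and 1 lower after heat, where 10.1% were called (3.78% higher, 6.32% lower). In controls at 240 min 0 passed, where 10.6% of all probes did (4.15% higher, 6.46% lower), and 2 probes of Hsbp1 had arrays that did not overlap, as 29.3% of all probes had. In the other 3 comparisons the arrays of the genotypes did not overlap at 11 probes after heat at 30 min (34.9% of all probes), 7 in controls at 30 min (41.1%) and 3 after heat at 240 min (25.2%). With median centring the 30 min counts were 0 higher and 3 lower after heat and 6 higher and 1 lower in controls. The 30 min comparisons rest on the wildtype arrays that stood apart in Xist, Y-linked genes and macrophage markers; the part of those differences in the results was not tested.

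Hsbp1 had the largest genotype difference of the 9 genes tested, at 30 min. Probe A_51_P325624 read -1.26, -1.13 and -1.17 in heated CHIP null cells at 30 min against -0.29, -0.29 and -0.24 in heated wildtype cells, and -1.23, -1.14 and -1.14 in CHIP null controls against -0.31, -0.41 and -0.33 in wildtype controls. The differences were -0.92 ± 0.06 (1.89-fold lower, adjusted p = 2.8e-13 in limma) and -0.82 ± 0.06 (1.76-fold lower, adjusted p = 3.7e-12). At 240 min the same probe read -1.15, -1.28 and -1.30 in heated CHIP null cells against -1.11, -1.20 and -1.25 in heated wildtype cells, a difference of -0.06 (95% interval -0.18 to 0.06), and -0.05 (-0.17 to 0.07) in controls. The 6 wildtype arrays at 30 min lay above the other 18, which held both CHIP null times and the wildtype arrays at 240 min. The genotype difference itself differed between the times, by 0.86 after heat (adjusted p = 7.2e-09) and by 0.77 in controls (adjusted p = 6.6e-08) in limma, in contrasts added after the data were seen. These contrasts called 13.8% of all probes after heat and 14.5% in controls. The other 2 Hsbp1 probes were lower in CHIP null cells at 30 min by -0.37 and -0.34 after heat and by -0.36 and -0.33 in controls, all with adjusted p-values of at most 7.4e-05. With slide as a block the control differences were -0.31 and -0.33 and missed the threshold (adjusted p = 0.09 and 0.069), and the other 30 min calls stayed. At 240 min they were lower by -0.19 and -0.18 after heat and by -0.18 and -0.17 in controls, of which only -0.19 passed (adjusted p = 0.042), a call lost without any 1 of 6 arrays (-0.21 to -0.16): the 3 heated wildtype arrays, heated CHIP null replicates 2 and 3, and wildtype control replicate 3. The slide block ended it too (-0.24, adjusted p = 0.39), while the -0.18 after heat and both control values passed in some fits with 1 array left out. All 3 probes had CHIP null arrays below wildtype arrays in both 30 min comparisons. With median centring the 30 min control differences of A_52_P544555 and A_52_P544556 were -0.25 and -0.23. Both missed the threshold there (adjusted p = 0.2 and 0.22 in limma).

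Probes of the co-chaperone genes Fkbp4, Stip1 and Ptges3 were higher in CHIP null cells at 30 min, for Ptges3 1 of 2 probes in each comparison and not the same one. Fkbp4 probe A_51_P185175 read 0.85, 0.76 and 0.79 in heated CHIP null cells against 0.50, 0.55 and 0.48 in heated wildtype cells, and 0.86, 0.86 and 0.91 in CHIP null controls against 0.50, 0.35 and 0.30 in wildtype controls. It was higher by 0.29 ± 0.08 (adjusted p = 0.0082) and by 0.49 ± 0.08 (adjusted p = 2.1e-05) in limma. Both calls were lost with slide as a block (0.14 and 0.38). With median centring the call after heat was lost (0.22, adjusted p = 0.37) and the one in controls stayed (0.65). The other Fkbp4 probe differed by 0.13 in controls (adjusted p = 0.25). At 240 min A_51_P185175 differed by -0.04 and -0.17 and did not pass. Stip1 read 1.59, 1.003 and 0.93 in heated CHIP null cells against 0.69, 0.69 and 0.77 in heated wildtype cells, a difference of 0.46 ± 0.10 (adjusted p = 0.00094) that was 0.25 without heated CHIP null replicate 1 and still passed. The slide block gave 0.23 and ended that call, as did median centring (0.42, adjusted p = 0.055). In controls Stip1 was higher by 0.29 ± 0.10 (adjusted p = 0.031), a call lost without any 1 of wildtype control replicates 1 and 3 and CHIP null control replicates 2 and 3 (0.24 to 0.29). It was -0.34, of the opposite sign, once slide was a block. That value is linked through heated CHIP null replicate 1 alone, the array with the highest Stip1 value. Ptges3 A_51_P474367 was higher in CHIP null controls at 30 min by 0.36 ± 0.08 (adjusted p = 0.0011), with 0.75, 0.66 and 0.86 against 0.48, 0.37 and 0.32 in wildtype controls. After heat it differed by 0.13 (adjusted p = 0.28), and the other probe differed by 0.18 in controls (adjusted p = 0.083).

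A further 4 probes were higher in heated CHIP null than in heated wildtype cells at 30 min. They were Hsp90ab1 A_52_P257204 (0.25), Ptges3 A_52_P249699 (0.22), Fkbp4 A_52_P585104 (0.26) and Hsf1 A_51_P102943 (0.23), with adjusted p-values of 0.02 to 0.044 in limma. With slide as a block only the Fkbp4 call stayed, at 0.47, with 0.09, 0.0054 and 0.24 for Hsp90ab1, Ptges3 and Hsf1. With median centring none of the 4 passed. Each lost its call when single arrays were left out. For Hsp90ab1 these were heated wildtype replicates 1 and 3 and heated CHIP null replicates 1 and 2 (0.22 to 0.25), for this Fkbp4 probe heated wildtype replicate 1 and heated CHIP null replicates 2 and 3 (0.23 to 0.26), and for Hsf1 heated wildtype replicates 1 and 3 and heated CHIP null replicate 1 (0.21 to 0.23). The Ptges3 call was lost in 10 of 24 fits (0.18 to 0.24), namely without any of the 3 heated CHIP null arrays, heated wildtype replicates 2 and 3 or wildtype control replicate 2 at 30 min, or any of the 3 wildtype controls or heated CHIP null replicate 2 at 240 min. Hsp90aa1, Ahsa1 and both Cdc37 probes passed in no genotype comparison, with differences from -0.18 to 0.14. Hsp90aa1 in 30 min controls was 0.53 with slide as a block and passed, against 0.06 without it. The 0.53 is linked through heated CHIP null replicate 1 alone, the array with the lowest Hsp90aa1 value. Ahsa1 passed at 30 min with the scanner software's ratio, at 0.15 after heat and 0.16 in controls, and in controls with median centring (0.42). At 240 min no genotype difference of the 17 probes exceeded 0.19 in size with loess and offset 50.

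**Figure D4:**
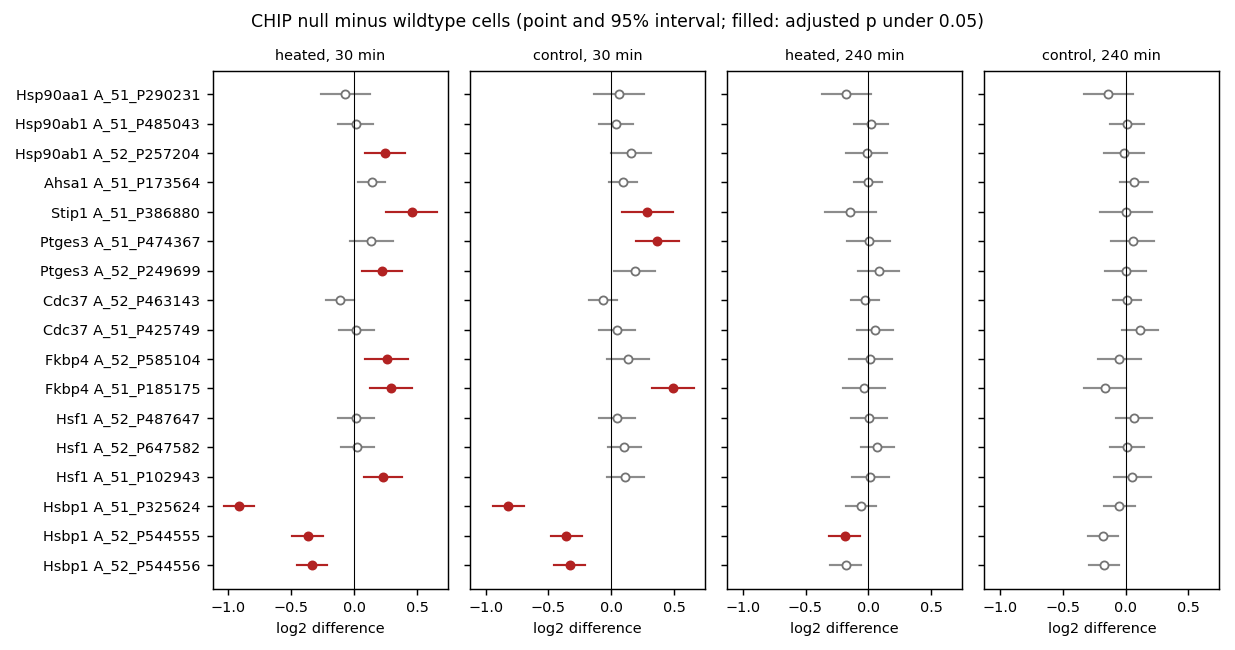
Difference between CHIP null and wildtype cells (log2 difference, horizontal axis) for the 17 tested probes (rows) at each treatment and time, with 95% intervals and filled red points for adjusted p under 0.05. The 3 Hsbp1 probes are lower in CHIP null cells at 30 min (-0.92 to -0.33), where Fkbp4 A_51_P185175 and Stip1 are higher, and at 240 min 1 of 34 points is filled.

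Between the time labels, Ptges3 differed most of the probes that were higher at 240 min. In wildtype controls A_51_P474367 read 1.21, 1.26 and 1.17 at 240 min against 0.48, 0.37 and 0.32 at 30 min, a difference of 0.82 ± 0.08, and A_52_P249699 gave 0.66 ± 0.08. In CHIP null controls the 2 probes gave 0.51 and 0.47, with all 4 adjusted p-values at most 1.8e-05 in limma. Among probes that were lower at 240 min, Hsbp1 A_51_P325624 differed most, by -0.91 in wildtype controls. In CHIP null controls its difference of -0.14 was not called in the fit to all arrays. In all, 3 probes were higher and 2 lower at 240 min in CHIP null controls (47.4% of all probes called, 21.9% higher and 25.5% lower) and 7 higher and 4 lower in wildtype controls (61% called, 30.3% higher and 30.7% lower). Arrays of the 2 times did not overlap at 6 and 12 of the 17 probes, against 55.3% and 68% of all probes. Scan day moves with the time label here, and the value table gives these differences the opposite sign, so the direction holds only under the labels of the scanner files. The wildtype comparison also uses the wildtype 30 min arrays, which stood apart in Xist, Y-linked genes and macrophage markers. The part of this in the results was not tested.

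Over the 24 arrays, after the mean of each time label was taken off, Hsp90aa1 was most like Cnot2 (r = 0.924), and Hnrnph2 was also close (0.879), among the brightest probes of all other genes. Hsp90ab1 was most like Acin1 (0.683) and Zfp551 (0.669), and Hsf1 like Arhgap10 (0.82) and Rps25 (0.802). Among the 9 genes, each by its brightest probe, Hsp90aa1 was closest to Ptges3 (r = 0.648) and farthest from Hsf1 (-0.723), and its r with Hsp90ab1 was 0.047. Other probes of a gene need not move alike. In wildtype controls, 240 against 30 min, the Hsf1 probe used, A_52_P487647, was lower (-0.22) and A_51_P102943 higher (0.18). The lowest r of any pair was that of Ahsa1 and Cdc37 (-0.761). These are descriptions over arrays that share 8 groups, 6 slides and a common reference.

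The other genes of the pathway, each by its brightest probe, were counted over lists that were drawn up with earlier results of these data known. Of 28 other HSP90 co-chaperones, 5 rose and 6 fell with heat in CHIP null cells at 30 min, 4 rose and 3 fell at 240 min, and in wildtype cells 1 rose and 1 fell at 30 min and 5 rose and 1 fell at 240 min. Of all 13488 genes tested in this way, 34.2%, 37.9%, 13.4% and 30.5% were called in the same order. Called higher were 21.9%, 23.5%, 6.25% and 18%, and called lower 12.3%, 14.4%, 7.13% and 12.5%. The medians were 0.0008, 0.10, 0.02 and 0.06 in the list, against 0.03, 0.07, 0.01 and 0.06 over all genes. Itgb1bp2, which encodes melusin, a CHORD-containing HSP90 partner known from muscle, rose in all 4, by 0.46 and 0.40 in CHIP null and by 0.33 and 0.29 in wildtype cells at 30 and 240 min. With median centring it differed by 0.07, 0.09, 0.17 and 0.17 and passed in none, and the wildtype calls were lost in 3 and 4 of 24 fits with 1 array left out. Cacybp, the calcyclin-binding protein gene, fell in 3 of 4, by -0.48 and -0.25 in CHIP null cells and by -0.23 in wildtype cells at 240 min, where the value was -0.08 with slide as a block and the call was lost. Chordc1, a CHORD-containing co-chaperone, fell by -0.37 in CHIP null cells at 30 min, with -0.23 at its other probe. The ER and mitochondrial paralogues Hsp90b1 and Trap1 gave 1 call in 8, Hsp90b1 at -0.24 in CHIP null cells at 240 min. Its other probe gave -0.11 there. The call was lost in 4 of 24 fits with 1 array left out, which gave -0.32 to -0.16.

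Of 35 client genes, 28 were tested, and in CHIP null cells 3 rose and 4 fell at 30 min and 3 rose and 9 fell at 240 min, while in wildtype cells 0 rose and 4 fell at 30 min and 3 rose and 9 fell at 240 min. The shares of all genes called are 34.2% and 37.9% in CHIP null and 13.4% and 30.5% in wildtype cells, as above. In the same order 21.9%, 23.5%, 6.25% and 18% were called higher, and 12.3%, 14.4%, 7.13% and 12.5% lower. The list medians were -0.04, 0.02, -0.05 and 0.0078, against 0.03, 0.07, 0.01 and 0.06 over all genes. Nr3c1, the glucocorticoid receptor gene, fell by -0.66 in CHIP null and -0.60 in wildtype cells at 240 min, and by -0.41 in CHIP null cells at 30 min. Its other 2 probes gave -0.28 to -0.11, -0.15 to -0.01 and -0.08 to -0.00 in these comparisons. Cdk6, a cell cycle kinase gene, fell in all 4, by -0.41 and -0.87 in CHIP null and by -0.31 and -0.79 in wildtype cells at 30 and 240 min, with -0.21 to 0.08 at its other probes. Trp53, the p53 gene, rose by 0.25 and 0.18 in CHIP null cells, and with median centring the values were -0.02 and -0.12 and neither passed.

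Of 25 other heat shock factor and HSF1 regulator genes, 21 were tested, and the counts of rises and falls were 4 and 5, then 0 and 4 in CHIP null cells at 30 and 240 min, and 1 and 4, then 2 and 2 in wildtype cells, beside 34.2%, 37.9%, 13.4% and 30.5% of all genes called. The list medians were 0.0055, -0.04, -0.10 and -0.07, against 0.03, 0.07, 0.01 and 0.06 over all genes. Crebbp, a histone acetyltransferase gene, fell by -0.40 and -0.51 in CHIP null cells at the 2 times and by -0.43 in wildtype cells at 240 min, while its other probe gave 0.05, -0.19 and -0.19. Of 22 tested textbook heat-inducible chaperone genes, 7 rose and 7 fell, then 2 rose and 2 fell in CHIP null cells, and 4 rose and 6 fell, then 4 rose and 3 fell in wildtype cells. The same shares of all genes apply, for both lists also by direction as given for the clients. The medians of the chaperone list were 0.03, 0.04, 0.04 and 0.05. Hspa1a, the inducible HSP70 gene, rose by 2.24 in CHIP null cells at 240 min, with 2 of 3 heated arrays giving a value, and by 3.27 in wildtype cells, on a probe that its near-copy Hspa1b may share. At 30 min Hspa1a differed by 0.46 and 0.38 and did not pass. Hspd1, the mitochondrial chaperonin gene, fell in all 4, by -0.99 and -0.83 in CHIP null and by -0.63 and -0.81 in wildtype cells, with -0.55 to -0.40 at its other probe.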

How the data were processed

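RNA of 24 samples was measured on 2-colour 44K Agilent arrays, with 500 ng of sample RNA in Cy5 and a common mouse reference RNA in Cy3, per the labels' protocols, and no array had the dyes swapped. Per the file headers, the deposited spot intensities (mean signal and median local background) and the log10 ratio of Cy5 over Cy3 came from Agilent Feature Extraction 9.1.3.1, each array by itself. The deposited value table holds a score per probe whose scale the authors do not state. Set against the scanner files it was a log ratio in which the columns of heated samples are differences from the control mean, with column medians of -0.0462 to 0.023: as deposited the 12 heated columns correlated at 0.1538 to 0.3029 with their arrays, and at 0.9997 to 0.9999 once the mean of the control columns was added. The flags used (well above background, outlier, control spot) are those deposited by the authors in the same files.

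Here intensities were background-corrected (normexp, offset 50), normalized within each array by loess, and averaged per probe on the log2 scale of the deposited Cy5 over Cy3 intensities. The offset draws dim probes towards 0, and loess removes any shift shared by all genes. Control spots and 333 outlier spots were left out. Of 41174 probes, 19358 were tested, namely those whose Cy5 signal was well above background throughout at least 1 group. One fit of 8 group means to 24 arrays was made in R 4.3.3 with limma 3.58.1 (lmFit, eBayes), with degrees of freedom of 16 (residual) and 13.1 (prior). Benjamini-Hochberg adjustment ran over all probes of a comparison, with a threshold of 0.05. The number of arrays limits the precision. The fits were tested on simulated data with independent noise at each probe. The simulation held no slide, scan day or normalization effects and cannot speak to them. Of the 20 probes, 18 were named through their accession and 2 by symbol. Alternatives covered centring, offset, the scanner software's ratio, the dim probe filter, 1 probe per gene, slide or replicate number as a block, the value table, the 12 arrays of 1 time label and each array left out. Of the pathway lists, the genes that could be named were the 2 highest and 2 lowest called ones with arrays that did not overlap, by brightest probe, and of genes of like pattern the 3 with the highest correlation, of which those without a gene symbol are left out and 1 more is not reported here. The genes described and all lists were chosen with earlier results of these data known.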

Additional observations from a re-analysis of the deposited data

Results flagged for a closer look

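The heat effect on Hsp90aa1 differed between the time labels in CHIP null cells by 0.52 (adjusted p = 0.04 in limma), with 0.70 ± 0.28 in heated and 1.18 ± 0.10 in control cells at 30 min, and 1.39 ± 0.09 in heated and 1.35 ± 0.17 in control cells at 240 min (SD, n = 3). The genotype difference of Hsbp1 probe A_51_P325624 (CHIP null minus wildtype) was higher, that is nearer 0, at 240 than at 30 min by 0.86 after heat (adjusted p = 7.2e-09 in limma) and by 0.77 in controls (adjusted p = 6.6e-08), and lay between 0.71 and 0.94 and between 0.64 and 0.80 over the settings run with the scanner files' labels. The genotype difference of Fkbp4 probe A_51_P185175 in controls differed between the times by -0.65 (adjusted p = 0.00012 in limma; -0.78 to -0.54 over settings). That of Stip1 in heated cells differed by -0.60 (adjusted p = 0.0036), with -0.39 without heated CHIP null replicate 1 at 30 min and -0.14 with slide as a block. Under the labels of the value table these genotype differences had the opposite sign, at -0.87 and -0.78 for Hsbp1 after heat and in controls, 0.62 for Fkbp4 and 0.60 for Stip1. Each of them uses the wildtype 30 min arrays, in which Xist was not well above background and macrophage markers were higher, and the part of this in the results was not tested. Such a change of the genotype difference between times was called at 13.8% of all probes after heat and at 14.5% in controls.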

How the results depend on the processing

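Of 49 called values of the 17 probes, 40 kept direction and call with a background offset of 10, 37 with the scanner software's log ratio, 43 without the filter on dim probes and 19 with median centring, which turned 8. With slide as a block 11 of 33 kept their call, and leaving out single arrays kept 1093 of 1176. Adding the replicate number as a block kept all 33 values that it could be fitted for, with 3, 6, 2 and 5 heat calls (CHIP null 30 and 240 min, wildtype 30 and 240 min) and 9, 1, 6 and 0 genotype calls (heated 30 and 240 min, control 30 and 240 min), and same-numbered arrays shared only a number, with correlations of their deviations from -0.227 to 0.549. Slide is nested in time and gives no value for controls at 240 against 30 min. There the replicate number as a block, added after the data were seen, left 5 calls in CHIP null and 11 in wildtype cells and kept all 16 values. The cause of the changes below was not tested.

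The heat call counts in CHIP null cells at 30 min, 3 as reported, were 11 with median centring, 5 with offset 10 and 7 with the scanner software's ratio. At 240 min 6 became 2 with median centring, 1 with 1 probe per gene and 2 with slide as a block. In wildtype cells at 30 min 2 became 0 with median centring, 0 with the slide block and 4 in the value table. At 240 min 5 became 0 with median centring, 3 with offset 10, 2 with 1 probe per gene, 0 with the slide block and 3 in the value table. For CHIP null against wildtype, heated at 30 min, 9 became 3 with median centring, 3 with 1 probe per gene, 4 with the slide block and 0 in the value table. Heated at 240 min, 1 became 0 with median centring, offset 10, the scanner software's ratio, no filter, 1 probe per gene and the slide block, 2 with 12 arrays and 9 in the value table. In controls at 30 min 6 became 3 with 1 probe per gene and 0 in the value table, and at 240 min 0 became 6 in the value table. For the heat effect at 240 minus 30 min in CHIP null cells, 1 became 0 with median centring, offset 10, the scanner software's ratio, no filter and the value table. For controls at 240 against 30 min, 5 in CHIP null cells became 2 with median centring, 2 with the scanner software's ratio, 3 with 1 probe per gene and 2 in the value table, and 11 in wildtype cells became 5 with 1 probe per gene.

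Leaving out 1 array gave 2 to 4, 3 to 7, 1 to 3 and 4 to 5 heat calls in the order above. It gave 6 to 9, 0 to 2, 5 to 7 and 0 to 1 genotype calls, 0 to 0 for both genotype differences in heat effect, 0 to 2 and 0 to 1 for the 240 minus 30 min difference in CHIP null and wildtype cells, and 2 to 6 and 8 to 11 for the controls.

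Median centring turned these heat values in CHIP null cells: Cdc37 A_51_P425749 to -0.14 at 30 and -0.092 at 240 min, and at 240 min Hsf1 A_52_P647582 to -0.18, Hsbp1 A_52_P544555 to -0.053 and A_52_P544556 to -0.13, and Fkbp4 A_51_P185175 to -0.094. In wildtype controls at 240 against 30 min it turned Hsbp1 A_52_P544555 to 0.12 and Hsf1 A_52_P487647 to 0.043. The slide block turned Stip1 in controls at 30 min to -0.34, a value linked through heated CHIP null replicate 1 alone. The value table by its own labels, which swap the times, gave -0.080 for Cdc37 A_52_P463143 (wildtype heat, 240 min), -0.14 for Stip1 (genotype, heated, 30 min), -0.16 for Fkbp4 A_51_P185175 (genotype, control, 30 min) and -0.62 for the Hsp90aa1 difference between times. For CHIP null controls at 240 against 30 min it gave -0.41 for both Ptges3 probes, -0.17 for Hsp90ab1, 0.062 for Hsf1 and 0.13 for Fkbp4. For wildtype controls it gave 0.31 for Cdc37, -0.73 and -0.77 for Ptges3, -0.38 for Hsp90aa1, 0.17 and 0.90 for Hsbp1, -0.30 and 0.12 for Hsf1, -0.29 and -0.23 for Hsp90ab1 and -0.49 for Fkbp4.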
